A study of Mus musculus with 12 samples.

Results

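A set of 4087 oligonucleotide probes on a mouse epitranscriptomic microarray, out of 60823 probes that were not controls, carried names beginning with ASMM10SM. They were chosen by that prefix alone, and each was printed as a single spot. The prefix is read here as the small RNA series of the array, beside the 56554 transcript probes whose names begin with ASMM10EP3. No table used here pairs an SM probe with a gene, a small RNA name or a sequence, so the reading of the prefix could not be checked and each probe is given by its identifier. For the same reason the lung origin of the RNA could not be checked against marker genes.

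The RNA came from whole lung of female BALB/c mice. The labels put their age at 8 to 10 weeks, while the study's methods give a younger age. The asthma group (3 mice) received ovalbumin (OVA) at 0.01% on days 0 and 7, followed by repeated aerosol challenge with 2.5% OVA, a model of chronic allergic asthma. The control group (3 mice) received phosphate-buffered saline (PBS) in place of OVA. The labels name no genetic change in either group. Whole lung mixes airway, vessel and immune cells, so a change in cell make-up and a change within a cell cannot be told apart. RNA of each mouse was split with an antibody against N6-methyladenosine (m6A). The bound fraction (IP) was labelled with Cy5 and the unbound supernatant (Sup) with Cy3, and both were hybridised to a single array, which gave 6 arrays. Dyes were never swapped, so the difference between fractions and the difference between dyes cannot be told apart.

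N6-methyladenosine is a methylated form of adenosine that is written into RNA by methyltransferases, removed by demethylases and read by binding proteins such as those of the YTH family. It is best known in messenger RNA, but some small non-coding RNAs carry it as well, such as the U6 small nuclear RNA, and it has been described in the precursors of microRNAs. RNA with the mark is retained by the antibody, while RNA without it tends to stay in the supernatant, so the IP signal relative to the Sup signal of a probe reads the balance between the fractions. Small RNAs are short and structured, and they include guides for modification of other RNAs, splicing components and regulators of messenger RNA.

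Most SM probes were dim, and a smaller share of them than of the transcript probes stood above background on each array. The scanner software marks each spot as well above background or not, and this mark was used as given. In IP, 54.9%, 54.4% and 48.7% of SM probes passed in control mice 1 to 3. In the asthma mice the shares were 58.7%, 58.0% and 57.6%, so all 3 asthma arrays lay above all 3 control arrays, control 1 on the same slide included. The transcript probes showed the same order at a higher level, with 60.1% to 66.7% in control and 69.5% to 70.0% in asthma. In Sup, 72.6% to 76.9% of SM probes passed in control and 72.4% to 75.9% in asthma, and the groups overlapped. Negative control spots passed in 2.22% to 6.67% of cases in IP and in 6.67% to 13.3% in Sup. The median SM signal was 30 to 46 scanner units in IP and 34 to 47 in Sup, against 38.5 to 66 and 43 to 63 for transcript probes. The upper end differed between the fractions. In Sup the 90th percentile of SM signal was above that of transcript probes on each array, at 552.4 to 910.8 against 450 to 829. In IP it was below on each array, at 284.3 to 576.7 against 347.5 to 885.85. The brightest SM spot reached 75563 to 223999 units in IP depending on the array, and no SM spot was saturated.

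There were 1887 SM probes (46.2%) well above background in IP on all 6 arrays, 2794 (68.4%) in Sup, and 1876 (45.9%) in both fractions. No signal well above background was seen in either fraction on any array for 763 SM probes (18.7%), compared with 12.3% of transcript probes. The other SM probes passed on some of the arrays. SM probes seen in Sup on all 6 arrays but never in IP numbered 293 (7.17%), compared with 4.78% of transcript probes. Most were dim, since 255 of the 293 had a Sup level below 0 on the scale defined next, as did 2648 of the 2704 transcript probes. The dimmest SM probe among them, ASMM10SM1100127790, had raw signals of 18 to 21 units in Sup and 21 to 32.5 in IP. Near background, passing in Sup alone therefore need not mean a higher signal in Sup. The opposite pattern, IP on all 6 arrays and Sup on none, was found for 4 SM probes (0.0979%) and 12 transcript probes (0.0212%). The 4 SM probes were ASMM10SM1100011847, ASMM10SM1100070637, ASMM10SM1100156712 and ASMM10SM1100128417. These 4, named after their values were seen, sat at the dim end in IP, between -0.38 and 0.04 on the level scale defined next.

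Levels are log2 background-corrected signals less the spike-in mean, also in log2, for that fraction and array. A level of 0 is therefore the brightness of the mean spike-in, which is close to background, and a difference of 1 is 2-fold. When SM and transcript probes of like Sup level were set side by side, the share of SM probes seen in IP was again the lower, a description with no test. Among probes well above background in Sup on all 6 arrays with a Sup level from 0 to 1, 647 of 806 SM probes (80.3%) were well above background in IP on all 6 arrays, compared with 91.0% of transcript probes. From 1 to 2 the shares were 93.4% and 99.6%. At a Sup level of 1 or more, 9 of 1010 SM probes (0.891%) never passed in IP, whereas none of the 14804 transcript probes did so.

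The brightest of the SM probes seen only in Sup had the pattern in every mouse because they were chosen for it. Their levels are given as a description. ASMM10SM1100049237 had Sup levels of 2.18, 2.70 and 2.05 in control and 2.24, 2.29 and 2.17 in asthma. Its raw Sup signal was 298.5 to 575 units, while its IP signal was 24.5 to 32 units over a local background of 19 to 23. The second, ASMM10SM1100062369, had Sup levels of 1.95, 2.38 and 1.80 in control and 1.91, 1.94 and 1.86 in asthma. For both probes the control and asthma values overlapped, and control mouse 2 was highest.

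For probes seen in both fractions, the balance between them was taken as the IP level minus the Sup level on the same array. The 3 control arrays had median values of 0.0085, -0.12 and -0.12 over the 2187 SM probes that passed the filter in both fractions, and the 3 asthma arrays had 0.13, 0.13 and 0.11. The groups did not overlap. These medians shift with the spike-in mean of each fraction and array, and many of the spike-in probes were dim. Slide differed between the groups as well, since the asthma arrays and control 1 lay on slide 1 and the other controls on slide 2. Transcript probes had medians of 0.02 to 0.17 in control and 0.26 to 0.31 in asthma, so the same order held for both sets. Because this balance changes with brightness, every probe was then compared with the median transcript probe in the same bin of 0.25 of the mean level on the same array. The median SM probe lay below its matched transcript probes on all 6 arrays, by -0.16, -0.13 and -0.11 in control and by -0.15, -0.19 and -0.14 in asthma. The control and asthma values of this gap overlapped. Its size depended on the processing. Over all mice the median gap was -0.13, and it was -0.027 with no filter, -0.22 with no background correction and -0.30 with the scanner's processed signal.

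The lower median came with a long tail of SM probes that leaned strongly to the supernatant. Among the 1868 SM probes with complete values well above background in both fractions on all 6 arrays, the gap to matched transcript probes had a 5th percentile of -2.60 and a lowest value of -5.28. The matching values for 32377 transcript probes were -1.18 and -4.07. The gap was below 0 on all 6 arrays for 880 SM probes (47.1%) and for 34.8% of transcript probes. It was above 0 on all 6 arrays for 405 SM probes (21.7%) and for 38.4% of transcript probes. On the upper side the 95th percentile was 0.51 for SM and 0.97 for transcript probes.

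A total of 279 SM probes (14.9%) lay at least 2-fold below matched transcript probes on all 6 arrays. The share among all probes was 4.39 percent, and among transcript probes it was 3.78%, or 4.03% when their brightness was weighted to that of the SM probes. At least 4-fold below were 115 SM probes (6.16%) and 108 transcript probes (0.334%). When probes were matched on the Sup level alone, 230 SM probes (12.3%) and 2.46% of transcript probes lay 2-fold below. The 2-fold line was set after the values were seen, and the shares are given as a description with no test. Just inside it was ASMM10SM1100043754, whose mean gap was -1.26, and just outside it was ASMM10SM1100127414, with a mean gap of -1.27 but a smallest gap of -0.98. On the other side, only 2 SM probes (0.107%) lay at least 2-fold above matched transcript probes on all 6 arrays, where the share among all probes was 1.84 percent. These were ASMM10SM1100043908, with IP minus Sup of 0.96 to 1.38 in control and 1.52 to 1.84 in asthma, and ASMM10SM1100108339, with 0.93 to 1.33 and 1.65 to 1.96.

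The 279 probes that leaned to Sup were brighter than the other SM probes in both fractions, and by more in Sup. Both are partly fixed by how the 279 were chosen. They were picked for a low IP minus Sup, and probes near background could hardly reach the 2-fold line. Their median Sup level was 3.64, 4.32 and 3.69 in control and 3.77, 3.67 and 3.82 in asthma. Their median IP level was 1.27, 1.25 and 1.01 in control and 1.42, 1.30 and 1.47 in asthma. The other 1589 SM probes had a median Sup level of 0.66 to 0.93 and a median IP level of 0.49 to 0.86. Among the 279, the mean IP minus Sup ranged from -4.77 to -0.81. Their median SD within a group was 0.24, larger than the 0.15 of the other SM probes. It was far smaller than the distance from 0, but that distance was partly set by the choice of probes. The 115 probes at 4-fold or more had a median Sup level of 4.25 to 4.85 and a median IP minus Sup of -3.16 to -2.80 in control and -2.66 to -2.58 in asthma.

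The lean to Sup was most frequent between mean levels of 1 and 6. Below a mean level of 0, none of 173 SM probes met the 2-fold line, and the median IP minus Sup was 0.21, against 0.26 for transcript probes. From 0 to 1 the share was 2.35% of 767 SM probes and 0.297% of transcript probes. From 1 to 2 it was 24.5% of 343 SM probes against 4.70%, from 2 to 3 it was 25.9% of 247 against 8.56%, and from 3 to 4 it was 31.0% of 239 against 10.1%. The median SM value in the last of these bins was -0.52, while transcript probes had 0.30. From 4 to 6 it was 49.2% of 61 SM probes against 12.0%. At 6 and above, where only 38 SM probes lay, the share was 23.7% against 11.9% and the median SM value was 0.71, close to the 0.78 of transcript probes. Near background the difference between fractions is bounded on both sides, so the dimmest bins allow no large value.

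Individual probes show how far apart the fractions could be. ASMM10SM1100030993 had the lowest mean balance, with IP minus Sup of -4.66, -5.20 and -4.91 in control and -4.77, -4.50 and -4.60 in asthma. Its Sup level was 6.08 to 6.80 and its IP level 1.17 to 2.02. ASMM10SM1100092135 followed, with -4.51, -5.23 and -4.45 in control and -4.65, -4.39 and -4.32 in asthma. In both, the spread among mice was small beside the distance between the fractions, and the asthma and control values overlapped. The brightest SM probe in Sup, ASMM10SM1100024964, also leaned to Sup, with Sup levels of 8.96 to 9.27 and IP levels of 7.04 to 8.21.

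The brightest SM probes in IP leaned the other way. ASMM10SM1100129028 had IP levels of 10.7, 10.4 and 10.0 in control and 11.2, 11.2 and 10.7 in asthma, and Sup levels of 8.92 to 9.30. Its IP minus Sup was 1.77, 1.23 and 0.73 in control and 2.19, 2.27 and 1.80 in asthma, the highest mean among SM probes seen in both fractions. The asthma values were all above the control values, by little between control mouse 1 and asthma mouse 3. ASMM10SM1100154542 had the second highest balance, with 1.27, 1.45 and 0.77 in control and 2.04, 1.99 and 1.66 in asthma. ASMM10SM1100114719 and ASMM10SM1100005063 were next in IP brightness, at 9.96 to 10.7 and 9.84 to 10.5.

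The asthma and control groups were then compared within each fraction by limma, fitted over SM and transcript probes detected in every mouse of the asthma group, the control group or both. A probe was called when its fold was above 1.5 with an unadjusted P below 0.05, and P adjusted by Benjamini-Hochberg over all probes tested is given beside it. Of the 4087 SM probes, 2203 were tested in IP. Of these, 1887 passed in both groups, 302 passed through the asthma group alone and 14 through the control group alone. In Sup 2921 were tested, of which 2794 passed in both groups. The median difference, asthma minus control, was 0.14 in IP for SM probes and 0.15 for all probes, and -0.08 and -0.07 in Sup. At matched brightness the SM probes differed from the transcript probes by a median of -0.01 in each fraction.

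In IP, 61 SM probes (2.77%) were higher in asthma, where 6.66 percent of all probes tested were. The share among transcript probes was 6.88%, or 6.67% at the brightness of the SM probes. A single SM probe was lower (0.0454%), where 0.0556 percent of all probes were. The split between higher and lower rested on the scaling. With quantile normalization 13 SM probes were higher and 5 lower, with scaling to the 75th percentile 24 and 12, and 36 and 77 when only bright spike-ins set the scale. The slide moved with the groups as well, since all asthma arrays and control 1 shared slide 1 and the other controls lay on slide 2. Both slide alternatives therefore take the difference of the asthma mice from control 1 alone. They are not separate checks, and they cannot tell slide from a trait of that mouse. Within slide 1, 35 SM probes were higher and 6 lower, and with the slide as a block 21 and 7. Of the 61 probes, 40 had asthma values that did not overlap the control values. The call itself favours separated groups, and no share over all probes is set beside this count, so it is a description only. All 61 were well above background in IP on all 6 arrays, their differences ranged from 0.59 to 5.18 with a median of 0.77, and 21 exceeded 2-fold. Single mice decided the count as well, which was 19 without asthma 1, 24 without control 3 and 31 without asthma 2, but 119 without control 2 and 142 without asthma 3.

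After adjustment 2 SM probes remained higher in IP and none lower, where 0.276 percent and 0.00506 percent of all probes were. At an unadjusted P below 0.05, with no fold required, there were 297 of 2203 SM probes, beside 6734 of 39562 over all probes tested. Without asthma 3 the number past adjustment was 24 higher and 2 lower, and without control 1, asthma 1 or asthma 2 it was 0. ASMM10SM1100049990 had IP levels of 2.79, 2.67 and 2.34 in control and 4.75, 4.49 and 4.93 in asthma. The groups lay well apart, and the difference was 2.13 with an SE of 0.17 (limma, adjusted P = 0.0103). Its Sup level was 1.76, 2.32 and 1.91 in control and 3.57, 3.25 and 3.75 in asthma, without overlap, a difference of 1.53 with an SE of 0.19 that did not pass adjustment (limma, adjusted P = 0.172). The IP difference of this probe kept its direction and its call in each alternative run on IP, from 1.63 with quantile normalization to 2.31 with no scaling. Within slide 1 it was 1.94, but no SM probe passed adjustment in IP there or with the slide as a block.

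The second probe past adjustment, ASMM10SM1100021529, rested on a single asthma spot. The scanner marked its IP spots as non-uniform on control 2, asthma 1 and asthma 3, and the fit dropped these. Its IP level was 0.53 in control 1, 0.21 in control 3 and 5.55 in asthma 2, a difference of 5.18 (limma, adjusted P = 0.0311). With the marked spots kept, the levels were 0.53, 1.08 and 0.21 in control and 6.34, 5.55 and 1.01 in asthma, the groups overlapped, and only 1 SM probe passed adjustment. Its Sup spots were complete, at 0.0078, 0.46 and 0.14 in control and 4.60, 3.79 and 0.25 in asthma. The signal of this probe was high in asthma mice 1 and 2 in both fractions and near the controls in asthma mouse 3.

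ASMM10SM1100076089 had the same outline. Its IP levels were 0.12, 0.61 and 0.25 in control and 3.90, 3.41 and 0.93 in asthma, and its Sup levels were 0.37, 0.59 and 0.46 in control and 3.34, 2.73 and 0.72 in asthma. The groups did not overlap in either fraction, but asthma mouse 3 lay close to the controls. The IP difference was 2.42 with an SE of 0.74 (limma, adjusted P = 0.226) and the Sup difference 1.79 with an SE of 0.64 (limma, adjusted P = 0.496). The single SM probe lower in IP, ASMM10SM1100066067, had levels of 1.19, 0.85 and 0.63 in control and 0.28, 0.44 and -0.13 in asthma. Its difference was -0.69 with an SE of 0.20 (limma, adjusted P = 0.221), and its Sup difference was -0.52.

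In Sup, 6 SM probes were higher in asthma (0.205%), where 0.567 percent of all probes were, and 14 were lower (0.479%), where 1.27 percent were. None passed adjustment by limma, where 0.0561 percent of all probes were higher and 0.00208 percent lower. At an unadjusted P below 0.05 with no fold required there were 347 of 2921 SM probes, beside 4671 of 48164 over all probes tested. The direction turned with the scaling, with 17 higher and 6 lower under quantile normalization and 31 and 14 under the 75th percentile. The slide alternatives again rest on control 1 as the only control mouse. Within slide 1 there were 9 and 9, and with the slide as a block 5 and 4. Asthma and control values did not overlap for 3 of the 6 and 11 of the 14, again among probes that the call had chosen and with no share over all probes beside it. The counts higher and lower were 66 and 29 without asthma 3, 18 and 5 without control 2, 2 and 46 without control 3 and 4 and 29 without control 1. They were 2 and 6 without asthma 1, and 2 and 12 without asthma 2. All 6 probes higher in Sup were also among the 61 higher in IP. Since both fractions come from the same mice, these are not independent. The Sup difference of the 61 had a median of 0.40, and it was above 0 for 57 of them. ASMM10SM1100149280 was one of the 6, with Sup levels of -0.26, 0.03 and -0.24 in control and 1.02, 0.64 and 0.41 in asthma. Its Sup difference was 0.84 with an SE of 0.17 (limma, adjusted P = 0.496), and its IP difference was 1.14 with an SE of 0.17 (limma, adjusted P = 0.0783).

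Among the 14 probes lower in Sup, ASMM10SM1100117503 had the largest decrease without overlap between groups. Its Sup levels were 4.80, 5.68 and 4.91 in control and 4.14, 3.72 and 4.11 in asthma, a difference of -1.14 with an SE of 0.25 (limma, adjusted P = 0.496). Its IP levels were 5.70, 6.05 and 5.37 in control and 5.54, 5.30 and 5.41 in asthma, which overlapped. ASMM10SM1100085704 followed with a Sup difference of -0.82, and ASMM10SM1100024974 with -0.78. For ASMM10SM1100085704 the IP values ran from 1.28 to 2.64 in control and from 0.57 to 2.06 in asthma, so that fraction overlapped too.

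For IP minus Sup, 176 of the 2186 SM probes tested were higher in asthma (8.05%), where 11.9 percent of all probes were, and 165 passed adjustment, where 11.1 percent did. The share among transcript probes was 12.1%, or 13.3% at the brightness of the SM probes. The whole array moved in this direction, with a median difference of 0.24 over all probes and 0.22 over SM probes. The count changed with the scaling. With quantile normalization 1 SM probe was higher and none lower. With scaling to the 75th percentile or to bright spike-ins 1 was higher and 3 lower, and with loess within each array 1 and 4. No higher call passed adjustment by limma in these 4 settings, and 1 lower call did with bright spike-ins. The slide alternatives that follow both set the asthma mice against control 1 alone. Within slide 1, 61 were higher and 3 lower, of which 27 and 1 passed adjustment, and with the slide as a block 56 and 3, of which 2 and 0 passed. The number higher past adjustment was also 1 with the scanner's processed signal, and 0 in the deposited values and with no empirical Bayes step. Without control 1 the count higher was 387, and without asthma 2 none of 188 passed adjustment, while 24 of 151 did without asthma 1. A single SM probe was lower, where 0.0102 percent of all probes were. None was lower after adjustment, where 0.00509 percent were. ASMM10SM1100097244 had IP minus Sup of -3.33, -1.99 and -2.77 in control and -3.39, -3.19 and -3.41 in asthma. It is named after its values were seen, and its groups overlapped.

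Among complete SM probes whose groups did not overlap, the largest difference in balance was that of ASMM10SM1100041901. Its IP minus Sup was 0.87, 0.42 and 0.31 in control and 1.48, 1.45 and 1.36 in asthma, a difference of 0.89 with an SE of 0.15 (limma, adjusted P = 0.00826). It was higher in asthma in IP by 0.65 and lower in Sup by -0.25. ASMM10SM1100110477 leaned to Sup in every mouse and less so in asthma, with -1.45, -2.00 and -1.43 in control and -0.60, -0.93 and -0.78 in asthma. Its difference was 0.85 with an SE of 0.17 (limma, adjusted P = 0.0116). ASMM10SM1100117503 had a like difference of 0.85 (limma, adjusted P = 0.00966). None of these 3 probes kept its call with loess, quantile or 75th percentile scaling, where the differences of ASMM10SM1100041901 were 0.42, 0.38 and 0.57.

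The 279 probes that leaned to Sup had median differences between asthma and control close to those of the other SM probes, a description with no test. These were 0.18 in IP, -0.12 in Sup and 0.30 in IP minus Sup, and for the other 1589 they were 0.16, -0.12 and 0.26. In IP 9 of the 279 were higher and none lower, compared with 50 and 1 of the 1589. Over all probes tested, 6.66 percent were higher and 0.0556 percent lower. In Sup 1 was higher and 2 lower, compared with 4 and 12, where 0.567 percent and 1.27 percent of all probes were. In IP minus Sup 35 were higher and none lower, compared with 138 and none, where 11.9 percent and 0.0102 percent of all probes were. The 279 were brighter than the 1589, and these counts are not matched for brightness.

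The spread among mice was small for most SM probes. The median SD within a group was 0.17 in IP, compared with 0.20 for transcript probes, and 0.13 in Sup, compared with 0.14. These SDs were not matched for brightness, and the offset added in background correction narrows the log2 spread of dim probes. The small values therefore need not mean close replication. A few SM probes varied far more, and the 3 with the largest SD in IP, chosen after their values were seen, shared an outline. ASMM10SM1100128197 had IP levels of 0.98, 2.67 and 1.13 in control and 5.76, 5.70 and 1.45 in asthma. ASMM10SM1100114821 had 2.51, 5.09 and 2.45 in control and 6.12, 5.86 and 3.20 in asthma, and ASMM10SM1100077373 had 2.56, 4.29 and 3.85 in control and 6.61, 6.15 and 3.16 in asthma. In all 3, asthma mice 1 and 2 were highest, asthma mouse 3 lay within or near the control values, and Sup showed the same order of these asthma mice. None was called in IP, although the differences were 2.71, 1.71 and 1.74. In IP minus Sup, ASMM10SM1100128197 was called higher by 0.88 (limma, adjusted P = 0.0591). ASMM10SM1100077373 was called higher there by 0.62 (limma, adjusted P = 0.0159).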

How the data were processed

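The deposited scanner files hold spot intensity values for both dyes of 6 2-colour arrays, per the file headers written by Agilent Feature Extraction, and both files of a mouse were the same, so 1 was used. A deposited matrix of log2 values covers 2329 of the SM probes. Each of its columns was equal to the scanner's processed signal, on the log2 scale, minus 1 constant (largest departure 5e-09), and the origin of that constant stays unknown.

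Median spot signals were corrected for local background with normexp (offset 50) in limma 3.58.1 under R 4.3.3, log2 transformed and scaled to the mean of 114 spike-in probes per fraction and array, of which 24 in IP and 56 in Sup were well above background on all 6 arrays. Such scaling rests on dim probes and can shift all probes together. Spots marked non-uniform were dropped. Groups were taken from the labels. Groups were compared with lmFit and eBayes over SM and transcript probes, with Benjamini-Hochberg adjustment. P measures the spread between 3 mice per group, and the number of arrays limits precision. The steps were tested on simulated data.

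Probes were named by rule: the 3 largest called changes in each direction without overlap between groups, in IP, Sup and IP minus Sup, those past adjustment (at most 5 in each direction), the 3 brightest per fraction, and the 2 highest and lowest in IP minus Sup. The members, lists and tests were chosen with earlier results of these data known. Alternatives covered background correction, scaling, filter, slide, replicate block and leaving out each mouse.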

Additional observations from a re-analysis of the deposited data

Results flagged for a closer look

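For 11 of the 17 SM probes named by rule the change in asthma differed between the fractions, by limma on IP minus Sup with a fold above 1.5 and adjusted P below 0.05, where 11.1 percent of all probes tested were higher. Of the 11, 5 were named because of this same test, so the count is partly fixed by the choice of probes and is given as a description. The difference between changes was 1.46 for ASMM10SM1100021529, which had values on 3 arrays only, 1 of them from an asthma mouse, 0.89 for ASMM10SM1100041901, 0.85 for ASMM10SM1100110477, 0.85 for ASMM10SM1100117503 and 0.84 for ASMM10SM1100129028. It was 0.73 for ASMM10SM1100154542, 0.66 for ASMM10SM1100005063, 0.65 for ASMM10SM1100024974, 0.63 for ASMM10SM1100076089, 0.61 for ASMM10SM1100114719 and 0.60 for ASMM10SM1100049990. The median over all probes tested was 0.24. With loess within arrays the values of the 10 probes with complete spots ran from -0.01 to 0.47, and none was called.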

How the results depend on the processing

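The counts of SM probes called in asthma depended on most of the choices tried. The number at least 2-fold below matched transcript probes was 230 to 391 over all alternatives run on it, against 279. The 2 are not alike, because matching on the same array removes any constant per array, so scaling by a constant could hardly move this number. Leaving out a mouse asks for the gap on fewer arrays and could hardly lower it, and gave 280 to 322. The median gap of IP minus Sup was -0.22 with no background correction, -0.30 with the scanner's processed signal, -0.30 in the deposited log2 values, -0.027 with no filter and -0.16 with probes well above background on all 6 arrays, and -0.14 to -0.13 when 1 mouse was left out. Counts in IP, higher and lower, were 95 and 3 with no background correction, 130 and 25 with the processed signal, 13 and 5 with quantile normalization, 24 and 12 with the 75th percentile, 195 and 0 with no scaling, 36 and 77 with bright spike-in probes only, 139 and 30 in the deposited values, 21 and 7 with the slide as a block, 35 and 6 within slide 1 and 30 and 1 with no empirical Bayes step. Counts in Sup in the same order were 16 and 73, 40 and 242, 17 and 6, 31 and 14, 3 and 10, 16 and 36, 40 and 96, 5 and 4, 9 and 9, and 2 and 8. Counts in IP minus Sup were 242 and 0, 187 and 6, 1 and 0, 1 and 3, 400 and 0, 1 and 3, 114 and 8, 56 and 3, 61 and 3, and 147 and 0. With loess within arrays they were 1 and 4. In each list the runs with the slide as a block and within slide 1 set the asthma mice against control 1 alone. With no filter, or with all 6 arrays required, none was lower in IP minus Sup. The median Sup gap was -0.042 in the deposited values. The share of called probes that were higher in IP was 98.4% as reported, and 72.2%, 66.7% and 31.9% with quantile, 75th percentile and bright spike-in scaling. In IP minus Sup it was 99.4% as reported and fell to 25% or less with the 75th percentile, bright spike-in probes and loess, as 1 of 4, 1 of 4 and 1 of 5. In Sup it was 6 of 20 as reported and 73.9% and 68.9% with quantile and 75th percentile scaling.

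With 1 mouse left out, counts in IP were 19 to 142 higher and 0 to 7 lower, in Sup 2 to 66 and 5 to 46, and in IP minus Sup 134 to 387 and 0 to 1. The gap at matched brightness was -0.03 to -0.0039 in IP and -0.02 to 0.00038 in Sup. For mice with the same replicate number, deviations over SM probes correlated at -0.36, 0.32 and 0.20 in IP and -0.37, -0.03 and 0.13 in Sup. No correlations of mice with different numbers are set beside these, so they cannot show whether the number pairs mice. With the replicate block 88 probes were higher and 1 lower in IP, 17 and 13 in Sup and 178 and 1 in IP minus Sup, and none of those in IP passed adjustment. Among the values of single named probes, 464 kept their side of the threshold, 126 lost it, and 1 changed sign, the IP minus Sup difference of ASMM10SM1100049990, which was -0.013 with loess. Signal near background limits what the dim SM probes can show, and 3 mice per group limit the precision of each difference. The causes of these changes were not tested.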
